A study of Mus musculus with 2 samples.

Results

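Mir22 and Mir210 are miRNA genes known for their links to metabolism and to low oxygen. They were chosen by symbol from the tables of miRNA counts, with their levels and the difference between the libraries already known, so those values describe the pair and are not tested. They make up 2 of the 2202 miRNA genes in the tables, and both were among the 358 genes with at least 10 counts in each library, called detected here. The tissue was the adrenal gland of female B6CASTF1/J mice, hybrids of C57BL/6J and CAST/EiJ parents, at 14 days of age, with no treatment named in the labels. The series holds 1 group of 2 libraries, numbered by the labels as biological replicates, so there is no comparison between conditions. The label of replicate 1 names 3 females and that of replicate 2 names 1 numbered female, and both carry the same donor identifier. How far the samples are independent animals is therefore unclear.

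A miRNA is cut from a hairpin precursor, and 1 of its arms, or both, guides a silencing complex to messenger RNAs that pair with bases 2 to 8 of the arm, the seed. Mir210 is a classical target of the hypoxia-inducible transcription factors, and its product is known for repressing genes of mitochondrial respiration such as the iron-sulfur cluster assembly gene Iscu. Mir22 is abundant in heart, skeletal muscle and liver, and has been studied in mice for its part in lipid metabolism and cardiac hypertrophy. In the adrenal gland, cells of the cortex make steroids from cholesterol and cells of the medulla make catecholamines.

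The sequences below are shown because the counts are per hairpin and cannot tell the arms apart. All are from RefSeq on build GRCm38.p6, printed 5′ to 3′ as RNA, with the seed of each mature arm in capitals.
mmu-miR-22-5p: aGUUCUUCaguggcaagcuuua
mmu-miR-22-3p: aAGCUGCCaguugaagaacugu
mmu-miR-210-5p: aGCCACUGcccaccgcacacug
mmu-miR-210-3p: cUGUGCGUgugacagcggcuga
In the hairpins, the mature arms are in capitals.
Mir22 hairpin: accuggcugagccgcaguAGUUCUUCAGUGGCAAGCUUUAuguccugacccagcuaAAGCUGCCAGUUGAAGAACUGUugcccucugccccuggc
Mir210 hairpin: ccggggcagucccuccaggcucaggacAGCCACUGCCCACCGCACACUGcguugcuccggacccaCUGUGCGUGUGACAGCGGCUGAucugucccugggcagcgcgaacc

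The 4 arms carry 4 different seeds, and none of these seeds occurred in a mature miRNA of another gene among the 1738 mature sequences of the RefSeq table. The Mir22 hairpin shared at most 11 bases in a row with any other of the 1005 hairpins, and the Mir210 hairpin at most 10. Against reverse complements of other hairpins the longest shared run was 13 bases for Mir22 and 12 for Mir210. The table covers 309 of the 358 detected genes, so copies outside it were not examined. The base composition of the hairpins differed, with 55.8% G and C over 95 bases in Mir22 and 69.1% over 110 bases in Mir210, beside a median of 51.7% over the hairpins of the table.

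On build mm10, Mir22 (ENSMUSG00000065529.1) lies at chr11:75463716-75463810 on the plus strand. There it falls within an exon of both annotated transcripts of Mir22hg, a noncoding host gene, and within an exon of 1 of 4 transcripts of the overlapping protein-coding gene Tlcd2. Mir210 (ENSMUSG00000065551.1) lies at chr7:141221384-141221493 on the minus strand, in no other gene of GENCODE M21. It stands 2725 bases from Rassf7 and 7290 bases from Phrf1. Neither has another miRNA gene within 10 kb. The nearest miRNA gene to Mir22 was Mir3971, 87618 bases away, and the nearest to Mir210 was Mir7063, 399207 bases away. Both genes had 0 counts on the opposite strand in both libraries, and their counts made without regard to strand were identical to those on their own strand.

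The libraries differed in their totals of miRNA counts and in the markers of other tissues, which bears on all that follows. Replicate 2 held 5034257 counts on miRNA genes and replicate 1 held 3797107. Of these, Mir122 made up 1080041 in replicate 2 and 10996 in replicate 1. All reads, counted or not, numbered 11190481 in replicate 2 and 10720796 in replicate 1, so most of the gap in miRNA counts lay in Mir122. In replicate 2, the liver markers, 3 of 4 measured members detected, summed to 21.6% of miRNA counts, against 0.300% in replicate 1, nearly all from Mir122. The striated muscle markers, 2 of 9 detected and led by Mir206, summed to 0.157% in replicate 2 and 0.00313% in replicate 1, with 3 of the 9 at 0 in both. Reads mapping to several places had been set aside, so a count of 0 need not mean that a miRNA was absent. Erythroid markers, led by Mir451a, ran the other way at 0.0560% in replicate 2 and 0.224% in replicate 1. After TMM scaling, which sets the bulk of detected genes equal, Mir451a had a log2 ratio of replicate 2 over replicate 1 of -2.03. Mir144 and Mir486 stood at -0.37 and -0.12, so of the 3 only Mir451a was past 2-fold. In 3 other lists the summed share followed the leading gene, and other members went the other way by their ratios after TMM scaling. Leukocyte markers summed to 0.107% in replicate 2 and 0.216% in replicate 1, with Mir142 at a log2 ratio of replicate 2 over replicate 1 of -1.44, while Mir150, Mir223 and Mir155 stood at 0.61, 0.43 and 0.03 and the list median was 0.23. Smooth muscle markers summed to 3.27% in replicate 2 and 4.65% in replicate 1, with Mir143 at a log2 ratio of -0.13, while Mir145a stood at 1.27. Kidney and gut markers summed to 1.98% in replicate 2 and 3.68% in replicate 1, nearly all from Mir10a at -0.54. Of the 5 detected kidney and gut members, 2 were at least 2-fold higher in replicate 2, Mir192 at 4.28 and Mir194-2 at 3.18. Lower by 2-fold or more were 0, and the median was 0.22. Mir192 and Mir194-2 also belong to the liver list. The other detected members, Mir10a, Mir196a-1 and Mir204, stood at -0.54, -0.23 and 0.22. Mir126a, the endothelial marker, stood at 14.1% in replicate 2 and 14.2% in replicate 1, with a log2 ratio of 0.41 after TMM scaling. Neuroendocrine markers, led by Mir375 and known from cells such as those of the medulla, stood at 2.02% in replicate 2 and 3.90% in replicate 1. All 4 of them were within 2-fold after TMM scaling, with a median log2 ratio of -0.54. The shares in this paragraph are of totals that Mir122 enlarges in replicate 2. Steroidogenic messenger RNAs, which define the cortex, are not measured by this assay.

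Mir22 was among the most abundant miRNA genes in both libraries, with reads mapping to several places set aside. It had 131937 counts in replicate 2 and 46350 counts in replicate 1. As a share of miRNA counts, with Wilson 95% intervals, that was 2.62% in replicate 2 (2.61 to 2.63) and 1.22% in replicate 1 (1.21 to 1.23). The intervals do not overlap, and cover counting error only, since the reads carry no molecular identifiers. In rank, Mir22 was gene 8 of replicate 2 and gene 21 of replicate 1. With Mir122 left out of both totals, its share was 3.34% in replicate 2 and 1.22% in replicate 1, so the gap widened. Over all reads of a library, mapped or not, Mir22 took 1.18% in replicate 2 and 0.432% in replicate 1.

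Mir210 was a gene of middling level. It had 690 counts in replicate 2 and 971 counts in replicate 1. Its share, with the same kind of interval, was 0.0137% in replicate 2 (0.0127 to 0.0148) and 0.0256% in replicate 1 (0.0240 to 0.0272). It was thus lower in replicate 2, the library with more miRNA counts through Mir122, in raw counts as well as in share. In rank, Mir210 was gene 164 of replicate 2 and gene 142 of replicate 1. Of the detected genes, 57.5% had a lower mean CPM (counts scaled to a common total of miRNA counts) than Mir210, and 96.6% had a lower one than Mir22.

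**Figure D1:**
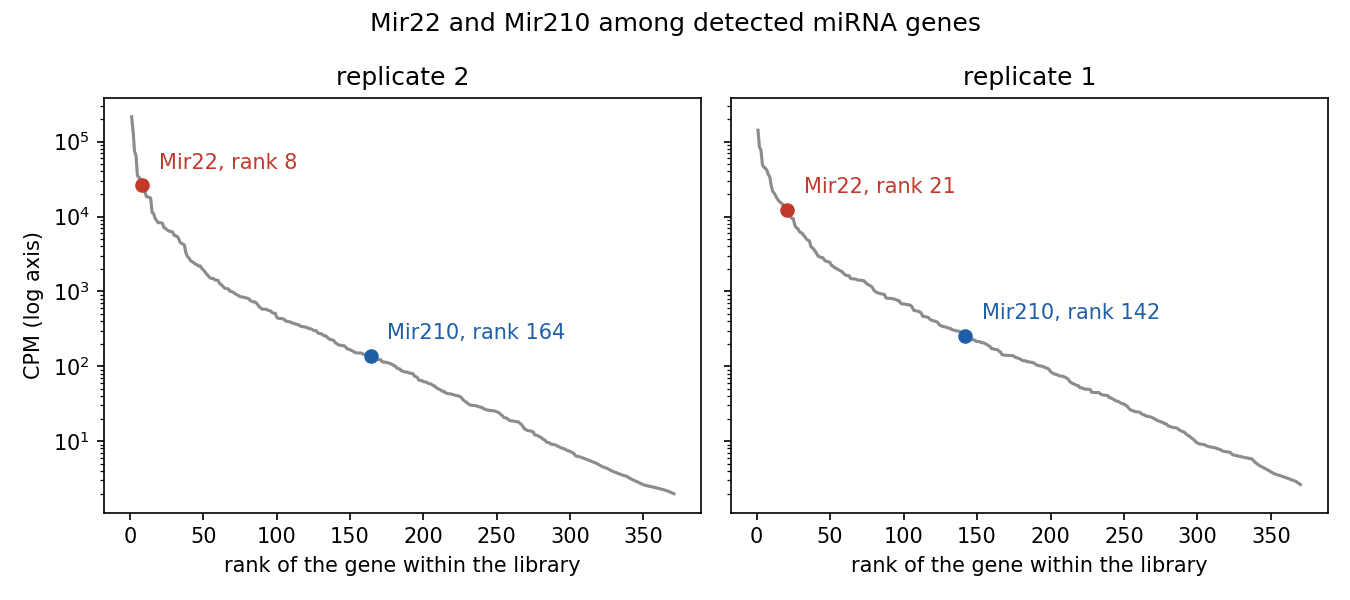
CPM (log axis) of the detected miRNA genes against their rank among all miRNA genes of the library, for replicate 2 and replicate 1, with 1 point each for Mir22 and Mir210 on the grey line of all detected genes. Mir22 sits on the steep left end, at rank 8 in replicate 2 and rank 21 in replicate 1, and Mir210 in the middle of the slope, at rank 164 in replicate 2 and rank 142 in replicate 1.

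By mean CPM, Mir22 stood at rank 12 with 19207 ± 9900 CPM (SD, n = 2 for all means). Above it stood Mir375, a miRNA of endocrine cells, at 25706 ± 11442 CPM, Mir21a, raised in many stress settings, at 25175 ± 23015 CPM, and Mir26b at 22487 ± 1112 CPM. Below it stood Mir23b at 18812 ± 4609 CPM, Mir322 at 18604 ± 10283 CPM and Mir139 at 17812 ± 566 CPM. Each of these 6 means lay within 1 SD of the Mir22 mean, so the place of Mir22 among the 7 genes is not resolved by the libraries. In replicate 2, Mir22 was above all 6 of them. In replicate 1, it was below all 6 of them.

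Mir210 stood at rank 152 with 196 ± 83.9 CPM. Its neighbours above were Mir339 at 204 ± 3.53 CPM, Mir125b-2 at 202 ± 130 CPM and Mir30c-2 at 199 ± 45.1 CPM. Its neighbours below were Mir673 at 193 ± 36.6 CPM and Mir770 at 193 ± 46.3 CPM, both of the imprinted Dlk1-Dio3 locus, and Mir194-2 at 192 ± 201 CPM. These means too lay within 1 SD of the Mir210 mean. Mir125b-2, Mir30c-2 and Mir194-2 have copies with the same mature sequence, so their own counts are uncertain.

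Between the libraries the members differed in opposite directions. With TMM scaling, Mir22 had a log2 ratio of replicate 2 over replicate 1 of 1.53 (95% counting interval 1.52 to 1.55), a 2.89-fold higher level. Mir210 had a log2 ratio of -0.47 (-0.61 to -0.33), or 0.722 of its replicate 1 level. Of the 358 detected genes, 9.22% were at least 2-fold higher in replicate 2 and 8.66% at least 2-fold lower. Mir22 was thus 1 of 33 genes past that fold on the higher side, and Mir210 was 1 of the 294 within it. The median absolute log2 ratio over detected genes was 0.46, so Mir210 lay close to the typical distance between the libraries. Ranked by ratio from the highest, Mir22 took place 16 of 358 and Mir210 place 264. Among the 50 genes of highest mean CPM, a number picked after the values had been seen, Mir22 took place 4. Ahead of it were Mir122 at 6.64, Mir195a at 2.23 and Mir99b at 1.60, and Mir125a, at 1.53, came next. Liver and muscle, tissues rich in Mir22, were among the listed tissues with markers higher in replicate 2, and their part in the Mir22 difference was not tested. Genes outside the marker lists also differed, among them Mir483 at 4.24, Mir200b at 3.90 and Mir20b at -2.09.

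**Figure D2:**
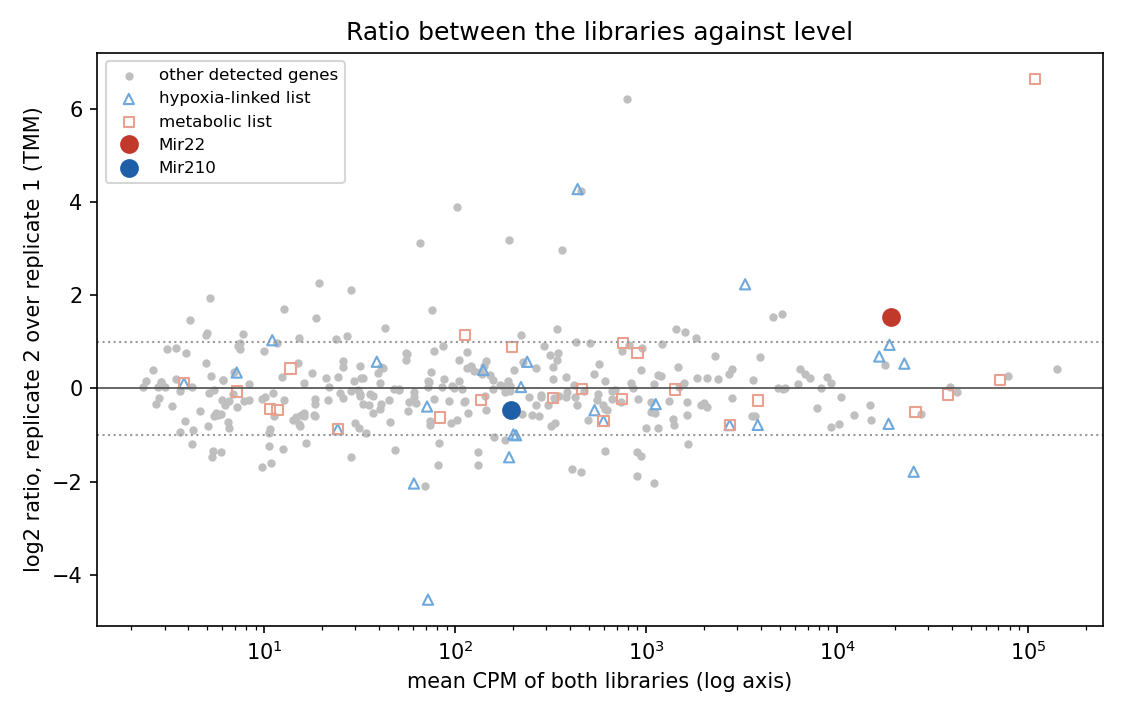
Log2 ratio of replicate 2 over replicate 1 (TMM scaling) against mean CPM (log axis), 1 point per detected gene, with dotted lines at 2-fold. Mir22, at 1.53, sits above the upper line among the abundant genes, and Mir210, at -0.47, sits between the lines among members of the hypoxia-linked list.

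The sign of each member's ratio held under every scaling tried. Over TMM and 10 alternatives, Mir22 ranged from 1.10 to 1.59 and Mir210 from -0.90 to -0.41. The lower end of both ranges came from plain library totals, where the counts of Mir122 enlarge the total of replicate 2, and where the median of all detected genes was -0.49 in place of -0.06 with TMM. With Mir122 left out of those totals, Mir22 stood at 1.45 and Mir210 at -0.56.

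**Figure D3:**
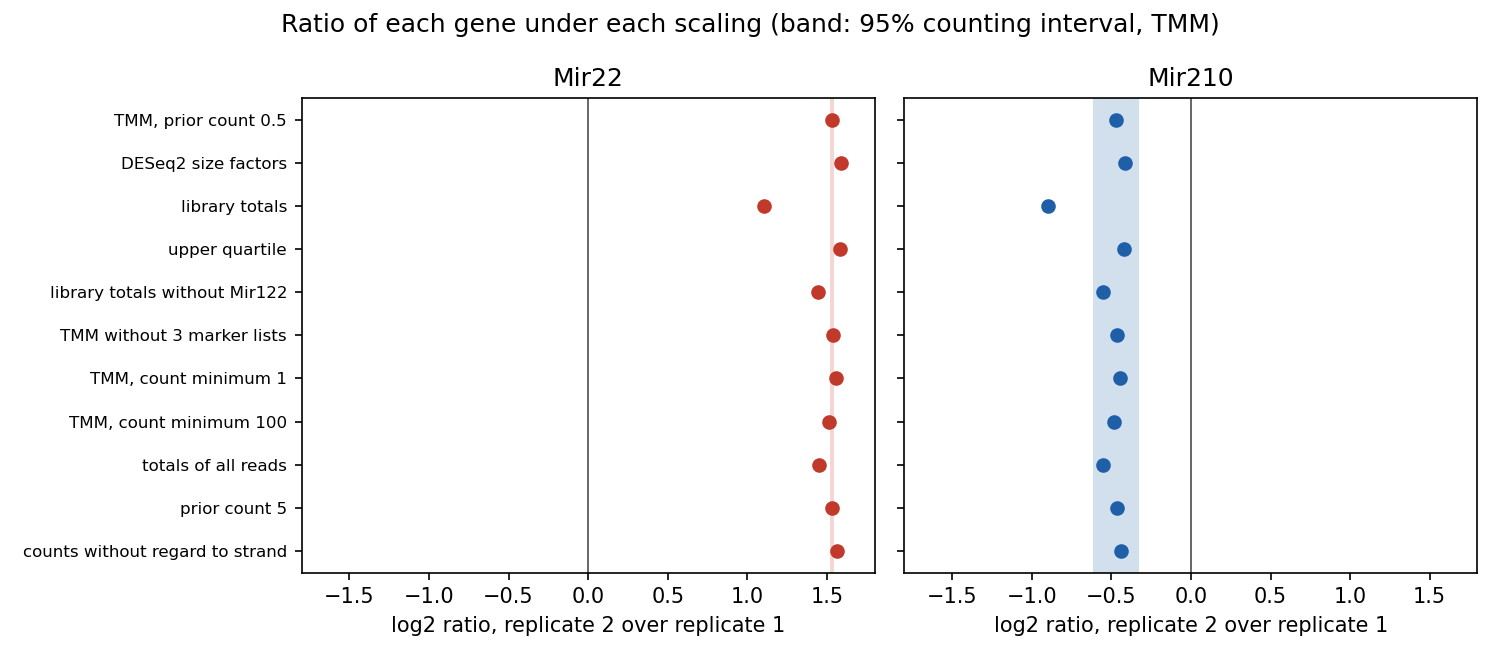
Log2 ratio of replicate 2 over replicate 1 for Mir22 and Mir210 under each scaling, prior count and strand setting, with the 95% counting interval of the TMM value as a band. Every point of Mir22 lies between 1.10 and 1.59, and every point of Mir210 between -0.90 and -0.41.

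A ratio of the members to each other needs no scaling between libraries. Replicate 2 had 191 Mir22 counts for each Mir210 count (exact binomial 95% interval 177 to 206), and replicate 1 had 47.7 (44.8 to 50.9). The ratio was thus 4.01-fold higher in replicate 2, a difference of 2.00 on the log2 scale. These are counts of sequenced reads, and capture during library making can differ between sequences, so the ratio within a library is not one of molecules.

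Each member was also set against the 20 most abundant other miRNA genes, here called anchors, within each library. The change in such a ratio is the log2 ratio of the member less that of the anchor. It therefore restates the differences between the libraries given above and is no separate evidence. Relative to these anchors, Mir22 was higher in replicate 2 for 19 of 20, and at least 2-fold higher for 17. The exception in direction was Mir122. Without it, the log2 change ran from 0.60 against Mir23b to 3.32 against Mir21a. For 100 counts of endothelial Mir126a, for example, Mir22 had 18.6 counts in replicate 2 and 8.58 in replicate 1. For 100 counts of Mir378a, an intronic miRNA gene of the metabolic coactivator Ppargc1b, it had 40.2 in replicate 2 and 15.7 in replicate 1. Mir210 gave no such uniform picture. It was lower in replicate 2 against 13 of the anchors and higher against 7, among them Mir375 at 0.04, Mir10a at 0.07 and Mir21a at 1.32.

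**Figure D4:**
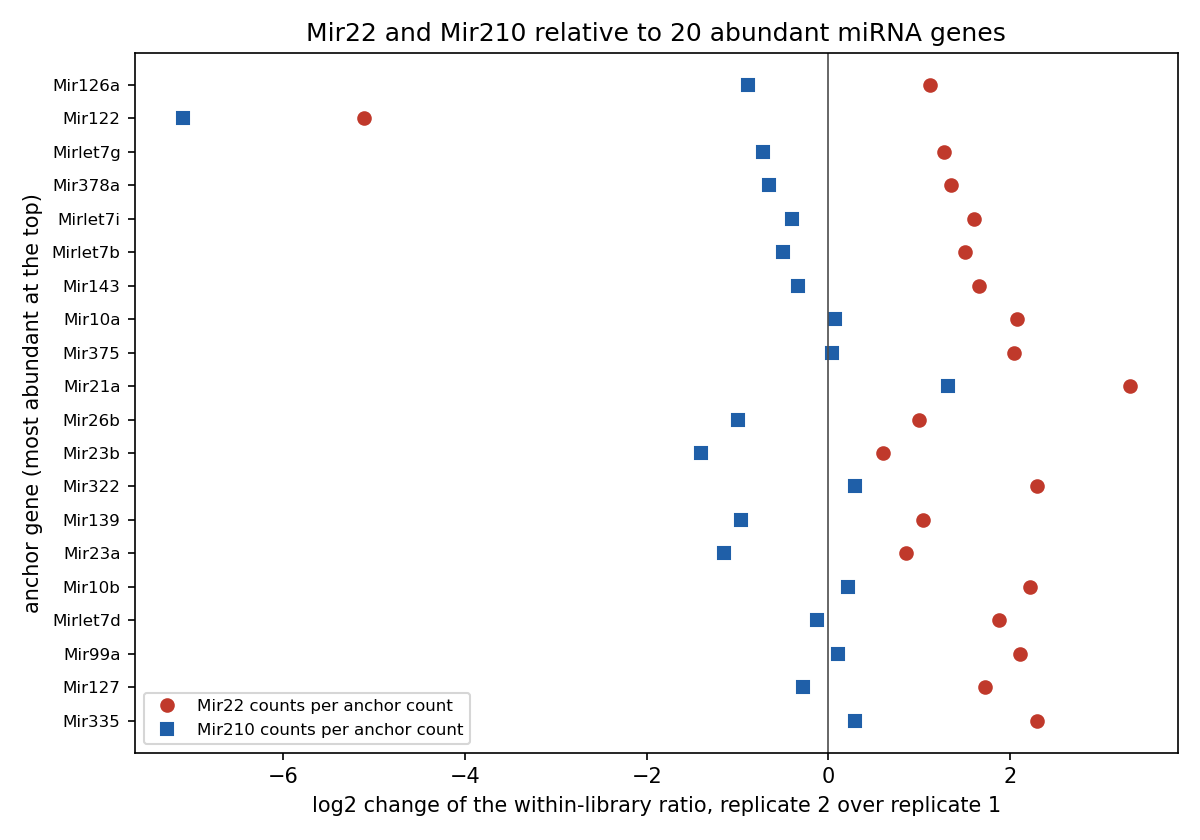
Log2 change, replicate 2 over replicate 1, of Mir22 and Mir210 counts relative to each of the 20 most abundant other miRNA genes. The Mir22 points lie right of 0 for all anchors but Mir122, and the Mir210 points lie on both sides of 0.

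The genes with the ratio most like that of Mir22, over 2 libraries and among those averaging 100 counts or more, were Mir125a, Mir99b, Mir539, Mir493 and Mir296. Their log2 ratios differed from it by 0.00, 0.06, 0.15, 0.24 and 0.25. Mir125a had 31771 counts in replicate 2 and 11165 in replicate 1, and Mir99b had 35863 in replicate 2 and 12050 in replicate 1. Both were far less abundant than Mir22. The nearest to Mir210 were Mir181b-2, Mir542, Mir1843a, Mir7j and Mir132, with differences of 0.00 to 0.02. Mir181b-2 has a mature sequence that another gene shares, so its own counts are uncertain. Mir132, a miRNA induced by neuronal activity and studied in steroid-producing cells, had 2165 counts in replicate 2 and 2997 in replicate 1. With 1 value per gene, a likeness of this kind describes these libraries alone.

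Among miRNA genes studied in lipid and glucose metabolism, 24 of 26 were detected. Of the 23 other than Mir22, 2 were at least 2-fold higher in replicate 2, 0 at least 2-fold lower and 21 within 2-fold, beside 9.22% higher and 8.66% lower over all detected genes. Their median log2 ratio was -0.13, beside -0.06 over all detected genes. The members past the fold were Mir122, the main miRNA of hepatocytes, and Mir183, with 703 counts in replicate 2 and 323 in replicate 1 (log2 ratio 1.14). The others included Mir378a at 0.18, Mir143 of smooth muscle at -0.13, Mir33, in an intron of the sterol regulator Srebf2, at -0.45, and Mir29a at -0.02. The members not detected were Mir802, with 129 counts in replicate 2 and 5 in replicate 1, and Mir378b, with 9 in replicate 2 and 14 in replicate 1. With library totals in place of TMM, the whole list, Mir22 included, gave 2 higher and 4 lower, where TMM gave 3 and 0. Over all 358 detected genes, library totals gave 19 higher and 79 lower, where TMM gave 33 and 31. Mir22 was gene 4 of the list in both libraries. In replicate 2 it stood behind Mir122, Mir378a and Mir143, and in replicate 1 behind Mir378a, Mir143 and Mir375.

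Among miRNA genes reported as raised by low oxygen in cultured cells, all 27 were detected, though 12 of them have a mature sequence that another gene shares. Of the 26 other than Mir210, 3 were at least 2-fold higher in replicate 2, 5 at least 2-fold lower and 18 within 2-fold, beside the same 9.22% higher and 8.66% lower over all detected genes. Their median log2 ratio was -0.36, beside -0.06 over all detected genes. Higher were Mir192, of liver, kidney and gut, at 4.28, Mir195a, a relative of miR-15 and miR-16, at 2.23, and Mir181a-2 at 1.03. Lower were Mir26a-1 at -4.54, Mir106a at -2.04, Mir21a at -1.79, Mir181a-1 at -1.48 and Mir30b at -1.01. Mir26a-1, Mir181a-1 and Mir181a-2 are among those with shared sequences, so their ratios are uncertain. With library totals in place of TMM, the whole list gave 2 higher and 11 lower, where TMM gave 3 and 5, beside the 19 higher and 79 lower of all 358 detected genes with those totals. The list median was then -0.82, beside -0.49 over all detected genes. Mir210 was gene 16 of the list in replicate 2 and gene 15 in replicate 1, and held 0.142% of the list's counts in replicate 2 and 0.189% in replicate 1. The most abundant members by mean CPM were Mir21a, Mir26b and Mir23b.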

How the data were processed

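The authors deposited 1 table a library, without a header, of whole-number counts per miRNA gene without normalization. The build is mm10 and the annotation GENCODE M21, per the text files deposited with them. How reads were trimmed, aligned and counted is not given in the sources used here. By their values, the 3 columns of each table were read as counts without regard to strand, on the gene's own strand (used here) and on the opposite strand. Reads mapping to several places (25.0% of reads in replicate 2, 28.0% in replicate 1) had been set aside, which can lower genes with copies. Both libraries come from a hybrid with CAST/EiJ alleles, and any effect of these on mapping to mm10 was not tested.

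Library sizes leave out the 4 summary lines. CPM, ranks and shares with Wilson 95% intervals were computed over all miRNA genes. Log2 ratios (replicate 2 over replicate 1) used TMM factors of 0.862 for replicate 2 and 1.16 for replicate 1, from genes with at least 10 counts in each library, a prior count of 0.5 and exact Clopper-Pearson intervals. With 1 library on each side there was no test. The calculation of the ratios was run on simulated counts with known differences, a check of the calculation and not of the values here. The simulated differences were smaller than that of Mir122 and, narrowly, than that of Mir22. The members and gene lists were chosen with earlier results of these data known. Named genes are the members, 3 neighbours in mean CPM on each side, the 5 nearest in ratio, list members past 2-fold and the leading gene of each marker list. Other genes were named with their values known. The liver entry Mir885 matched no symbol.

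Alternatives were DESeq2 size factors, upper quartile, library totals with and without Mir122, totals of all reads, TMM without marker genes, count minimums of 1 and 100, a prior count of 5, counts without regard to strand and each replicate alone. Scaling was done with edgeR 4.0.16 and DESeq2 1.42.0 in R 4.3.3, and the rest with scipy 1.17.1 and pandas 2.3.3 in Python 3.11.15.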

Additional observations from a re-analysis of the deposited data

How the results depend on the processing

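The log2 ratio of Mir22, 1.53 with TMM, left its counting interval at 1.59 with DESeq2 size factors, 1.58 with the upper quartile, 1.10 with library totals, 1.45 with library totals without Mir122 and also with totals of all reads, 1.55 and 1.52 with count minimums of 1 and 100, and 1.56 with counts made without regard to strand. It kept its sign and its side of 2-fold in each. The log2 ratio of Mir210, -0.47, left its interval only with library totals, at -0.90, among the 10 alternatives. The number of genes at least 2-fold higher in replicate 2, 33, became 19 with library totals, 79 with a count minimum of 1 and 18 with a minimum of 100. The number at least 2-fold lower, 31, became 79, 78 and 20 in these settings. The minimums change how many genes enter, and library totals shift all ratios.

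Each replicate alone gave Mir22 shares of 1.22% to 2.62% and ranks of 8 to 21, Mir210 shares of 0.0137% to 0.0256% and ranks of 142 to 164, and log2 values of Mir22 over Mir210 counts of 5.58 to 7.58. A ratio between the libraries needs both, so none could be had with 1 left out. No paired analysis was possible because the series has 1 group. With 2 libraries an SD is rough, and every ratio sets against each other libraries that differ in liver and muscle markers, among other genes.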
